A study of Mus musculus with 4 samples.

Results

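The subcortical maternal complex is a protein assembly that mouse oocytes store under the cell cortex. Here its 8 genes, Khdc3, Ooep, Nlrp5, Tle6, Padi6, Zbed3, Nlrp2 and Nlrp4f, were selected by gene name from a table of 53715 genes, and each name matched 1 gene. The libraries came from blastocysts of the C57BL/6 strain, grown in KSOM embryo medium from zygotes taken from the oviduct. The α-KG library was from embryos given α-ketoglutarate at 0.15 mM from the stage of 2 pronuclei, and it had a negative control of its own. The 2-HG library was from embryos given 2-hydroxyglutarate at 0.3 mM from that stage, and it too had a separate negative control. Each of the 4 groups held 1 library, so no difference could be tested, and values are given as TPM, the usual measure of transcript level scaled to transcript length and to a common total per library. The number of embryos pooled and the form of 2-HG are not stated in the labels, and TPM values carry no sequencing depth.

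The complex forms while the oocyte grows and is inherited by the embryo, where it lies at the outer cortex and is absent from contacts between cells. Most of the mRNAs that encode it are made in the oocyte and are broken down around the time that the embryo's own genome becomes active, while the proteins last longer. In mice, loss of the maternal supply of Nlrp5, Tle6, Ooep or Padi6 stops or impairs cleavage of the embryo. Khdc3 is also transcribed in mouse embryonic stem cells.

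At the blastocyst stage the 8 genes ranged from abundant to listed at 0. Khdc3 was abundant, Ooep and Tle6 were moderate, Padi6, Zbed3 and Nlrp4f were low, Nlrp5 was under 1 TPM, and Nlrp2 had 0 TPM in each library. Ooep and Tle6 encode parts of the core of the complex, and so does Nlrp5, which was close to 0. The ranges over the 4 libraries did not overlap between Khdc3, Ooep, Tle6 and Padi6, in that order. The ranges of Padi6, Zbed3 and Nlrp4f overlapped each other, as did those of Nlrp4f and Nlrp5, so the order among these neighbours is not set by the data.

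The stretches before the RefSeq start sites of Khdc3 and Ooep, the most abundant of the 8, are shown with that of Nlrp5. Nlrp5 is a core gene under 1 TPM, so the letters can be set beside the levels. They come from RefSeq promoters of GRCm38.p6, cut to the longest run free of GENCODE M21 exons within the 250 bases before the most upstream start site, and all 8 genes had an entry. Capitals mark CANNTG, the E-box bound by basic helix-loop-helix factors such as FIGLA, and TAATTA or TAATTG, the element of the oocyte homeobox factor NOBOX, in either orientation. The Khdc3 stretch is on the plus strand of chromosome 9, 73102205 to 73102397. It lies inside the Khdc3 gene of GENCODE M21, which starts at 73101836, so it is exon-free sequence within that gene and not upstream of it. The Ooep stretch, which ends 137 bases before the RefSeq start site, is on the minus strand of chromosome 9, 78378726 to 78378838. The Nlrp5 stretch is on the plus strand of chromosome 7, 23385639 to 23385888.
Khdc3: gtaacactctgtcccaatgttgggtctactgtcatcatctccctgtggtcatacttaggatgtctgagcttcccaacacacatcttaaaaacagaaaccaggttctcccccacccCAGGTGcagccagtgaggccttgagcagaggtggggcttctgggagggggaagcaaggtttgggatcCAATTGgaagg
Ooep: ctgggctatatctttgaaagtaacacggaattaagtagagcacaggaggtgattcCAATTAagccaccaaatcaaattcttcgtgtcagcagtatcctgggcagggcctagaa
Nlrp5: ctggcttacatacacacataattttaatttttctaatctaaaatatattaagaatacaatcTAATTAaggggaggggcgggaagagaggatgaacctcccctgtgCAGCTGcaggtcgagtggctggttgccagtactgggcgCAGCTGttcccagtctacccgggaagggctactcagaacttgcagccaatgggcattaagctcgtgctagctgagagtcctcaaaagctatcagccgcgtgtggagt
Over the full 250 bases before the RefSeq start site and both strands, exons included, CANNTG stood 5 times for Khdc3 and 3 times for Zbed3. It stood 2 times each for Nlrp5, Tle6 and Padi6, 1 time each for Ooep and Nlrp4f, and 0 times for Nlrp2. The whole windows of Khdc3 and Nlrp4f lie inside those genes in GENCODE M21, and those of Ooep and Tle6 lie partly inside theirs. GENCODE exons covered all 250 bases for Nlrp4f, 137 for Ooep, 95 for Tle6, 57 for Khdc3 and 40 for Nlrp2. The longest exon-free run held 2 of the 5 matches for Khdc3 and 0 for Ooep and Tle6, and Nlrp4f had no such run. CANNTG is a common motif, present in 66.2% of 32817 such windows of all genes. The NOBOX element stood once before Ooep and once before Nlrp5, and in none of the other 6 windows, against 11.3% of all windows. Both CANNTG matches in the Tle6 window were CACGTG, which 6.02% of all windows hold. These matches are letters only, and Ooep at 30.8 TPM or more and Nlrp5 at 0.57 TPM or less had 1 NOBOX element each.

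**Figure D1:**
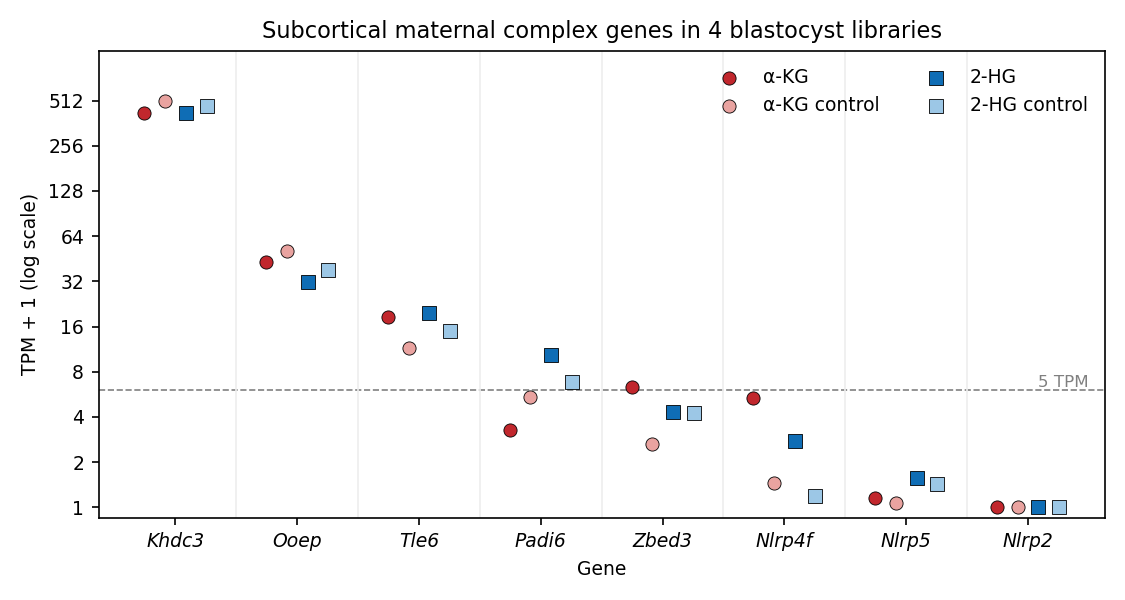
TPM + 1 on a log scale for the 8 genes, ordered by mean level, with 1 point per library and a dashed line at 5 TPM. Khdc3 lies at 422 TPM or more in all 4 libraries, Ooep and Tle6 lie between 10.5 and 50.2 TPM, and Nlrp2 lies at 0.

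Khdc3 encodes the KH-domain protein FILIA, which is needed for normal chromosome segregation in cleavage embryos (ENSMUSG00000092622, plus strand of chromosome 9, 73101836 to 73104438 in GRCm38). It was at 425 TPM with α-KG, against 508 TPM in the α-KG control. It was at 422 TPM with 2-HG, against 473 TPM in the 2-HG control. Each treated library was thus below its own control, and the 4 values lay within 1.21-fold of each other. On the log2(TPM + 1) scale, used for all differences here, Khdc3 differed by -0.26 with α-KG and by -0.17 with 2-HG. Of all genes tested, 50.1% differed by at least as much as Khdc3 with α-KG and 69.7% with 2-HG, so neither difference stood out from the table. With median-of-ratios scaling, a rescaling that centres the median gene, the 2-HG difference of Khdc3 was -0.04. Ranked by TPM, Khdc3 was gene number 415 with α-KG, 327 in the α-KG control, 425 with 2-HG and 373 in the 2-HG control. The predicted gene Gm20509 shares 790 of the 2050 exonic bases of Khdc3 on the same strand, and it was listed at 0 in all 4 libraries.

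Ooep encodes the KH-domain protein FLOPED, which binds MATER and TLE6 in the core of the complex (ENSMUSG00000032346, minus strand of chromosome 9, 78376109 to 78378725). It was at 42.0 TPM with α-KG, against 50.2 TPM in the α-KG control. It was at 30.8 TPM with 2-HG, against 37.0 TPM in the 2-HG control. Each treated library was below its own control, at -0.25 with α-KG and -0.26 with 2-HG, yet the controls differed from each other by more, at -0.43 for the 2-HG control minus the α-KG control. Against the control of the other pair, the α-KG difference of Ooep was 0.18, of the other sign. Khdc3 was 10.1 times as abundant as Ooep in the α-KG library and in its control, and 13.7 times with 2-HG and 12.8 times in the 2-HG control. This ratio thus differed more between the pairs than within them.

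Tle6 encodes a transducin-like protein of the core (ENSMUSG00000034758, minus strand of chromosome 10, 81590904 to 81601073). It was at 17.6 TPM with α-KG, against 10.5 TPM in the α-KG control. It was at 18.8 TPM with 2-HG, against 14.0 TPM in the 2-HG control. Each treated library was above its own control. The differences were 0.70 with α-KG and 0.40 with 2-HG, under the 2-fold rule, which calls a gene at a difference of 1 or more in either direction. Differences at least as large were found in 14.6% of genes tested with α-KG and in 38.0% with 2-HG, and the controls differed by 0.39. Tle2, on the opposite strand, ends 58 bases from Tle6 and was at 0.03 TPM or less in each library.

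Nlrp5 encodes MATER, the NLR-family protein on which the core is built (ENSMUSG00000015721, plus strand of chromosome 7, 23385889 to 23441922). It was at 0.16 TPM with α-KG and 0.07 TPM in the α-KG control, and at 0.57 TPM with 2-HG and 0.44 TPM in the 2-HG control. These values are too low for a fold change to be read from them. The separately listed pseudogene Nlrp5-ps was at 0.24 TPM with α-KG and 1.18 TPM in the α-KG control, and at 0.52 TPM with 2-HG and 1.505 TPM in the 2-HG control. Reads shared between such copies can be split by the counting, so both sets of values are uncertain.

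Padi6 encodes a peptidylarginine deiminase family protein that oocytes need to build their cytoplasmic lattices (ENSMUSG00000040935, minus strand of chromosome 4, 140727355 to 140742643). It was at 2.25 TPM with α-KG, against 4.39 TPM in the α-KG control. It was at 9.38 TPM with 2-HG, against 5.84 TPM in the 2-HG control. The α-KG library was the lowest of the 4 and the 2-HG library the highest, with both controls between them. The difference was -0.73 with α-KG, where both values lay under the 5 TPM minimum for testing, and 0.60 with 2-HG, under the 2-fold rule. The controls differed by 0.34. Against the 2-HG control, Padi6 in the α-KG library was past the 2-fold rule, at -1.07.

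Zbed3 encodes a zinc finger protein that associates with the complex and is also known to bind AXIN in Wnt signalling (ENSMUSG00000041995, plus strand of chromosome 13, 95323612 to 95337841). It was at 5.35 TPM with α-KG, against 1.62 TPM in the α-KG control. It was at 3.31 TPM with 2-HG, against 3.23 TPM in the 2-HG control. The α-KG library was the highest and its control the lowest, and both libraries of the 2-HG pair lay between them. Its difference of 1.28 with α-KG was past the 2-fold rule, the only such call among the 8 genes at the 5 TPM minimum, a side of the rule that 4.21% of all genes tested reached. That call rests on the low value of the α-KG control: the difference was 0.89 against the mean of both controls and 0.58 against the 2-HG control, under the rule each time. It was also under the rule with a pseudocount of 5, at 0.64. With 2-HG the difference was 0.03.

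Nlrp4f encodes an NLR-family protein of the complex in mouse oocytes (ENSMUSG00000032999, minus strand of chromosome 13, 65177111 to 65205977). It was at 4.33 TPM with α-KG, against 0.46 TPM in the α-KG control. It was at 1.77 TPM with 2-HG, against 0.18 TPM in the 2-HG control. Each treated library was above its own control. All 4 values lay under the 5 TPM minimum, and the control values are as low as those of Nlrp5, so no ratio is read from them. With a minimum of 1 TPM in either library, the differences of 1.87 with α-KG and 1.23 with 2-HG were past the 2-fold rule, as were those of 8.38% of genes on the higher side with α-KG and 5.31% with 2-HG. With a pseudocount of 5 they were 0.77 with α-KG and 0.39 with 2-HG. The mouse Nlrp4 genes are close paralogues, so reads may be shared among them. Nlrp2, which encodes another NLR-family protein of the complex (ENSMUSG00000035177, minus strand of chromosome 7, 5298547 to 5351035), was listed at 0 in all 4 libraries and gives no difference.

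Across the 8 genes, 4 could be tested in each comparison, since the others were under 5 TPM in both libraries. With α-KG these were Khdc3, Ooep, Tle6 and Zbed3, of which 1 was past the 2-fold rule on the higher side and 0 on the lower. Of all 9878 genes tested with α-KG, 3.1% were past the rule on the lower side, beside the 4.21% on the higher side. Calls were more frequent at low levels: among the 2012 genes whose higher value lay between 5 and 10 TPM, where Zbed3 falls, 9.49% were past the rule on the higher side. With 2-HG the genes tested were Khdc3, Ooep, Tle6 and Padi6, and 0 were past the rule in either direction. Of all 9834 genes tested with 2-HG, 2.36% were past it on the higher side and 5.65% on the lower, or 3.18% and 4.32% with median-of-ratios scaling, which moved the median of all genes by 0.13. Between the controls the same 4 genes were tested and 0 were past the rule, beside 5.99% of 9927 genes higher and 2.87% lower in the 2-HG control.

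The median difference of the 4 genes tested was 0.22 with α-KG, beside 0.05 for all genes tested. It was 0.11 with 2-HG, beside -0.12 for all genes, and 0.12 between the controls, beside 0.09. In each comparison 2 of the 4 were above 0 and 2 below. The α-KG median rests on Zbed3, which reached the minimum only through its α-KG value of 5.35 TPM, against 1.62 TPM in the control. With α-KG the others tested were at -0.26 for Khdc3, -0.25 for Ooep and 0.70 for Tle6. Padi6 was tested between the controls only through its value in the 2-HG control. Khdc3 and Ooep were below 0 and Tle6 above it in each comparison, so the genes did not move as a block. The comparisons share control libraries, so their values are not independent of each other.

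**Figure D2:**
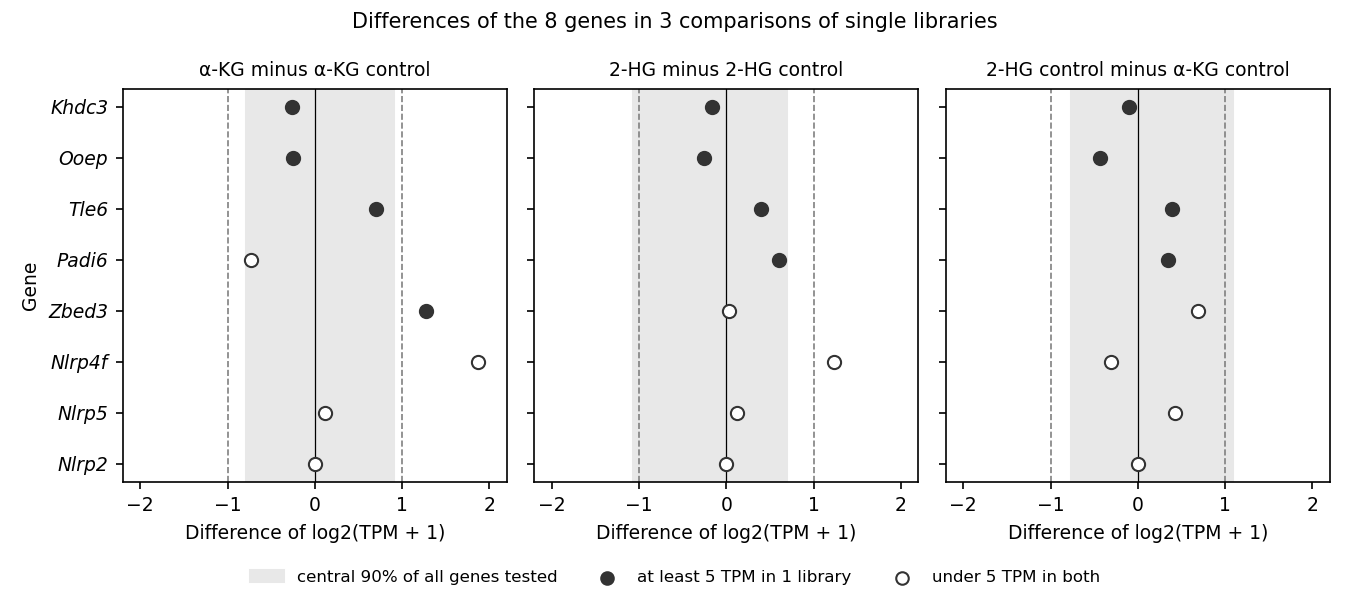
Difference of log2(TPM + 1) for each gene (x axis) in 3 comparisons of single libraries, with filled points for genes at 5 TPM or more in at least 1 library, open points for genes under it in both, grey bands for the central 90% of all genes tested and dashed lines at the 2-fold rule. Zbed3 at 1.28 with α-KG is the filled point outside the dashed lines, and Nlrp4f, at 1.87 with α-KG and 1.23 with 2-HG, is the open point outside them.

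Summed over the 8 genes, the level was 497 TPM with α-KG, against 576 TPM in the α-KG control. It was 486 TPM with 2-HG, against 534 TPM in the 2-HG control. The sum was mostly Khdc3, which made up 85.6% with α-KG and 88.3% in the α-KG control, and 86.7% with 2-HG and 88.6% in the 2-HG control. Without Khdc3 the order turned round, at 71.7 TPM with α-KG, against 67.3 TPM in the α-KG control, while it was 64.6 TPM with 2-HG and 60.8 TPM in the 2-HG control. In bulk libraries such as these, fewer cells that hold an mRNA and less of it per cell cannot be told apart.

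Khdc3 and Ooep belong to a family of KH-domain genes, and the relatives were present too. Dppa5a, a pluripotency-associated family member that lies 7931 bases from Ooep on the same strand, was at 4364 TPM with α-KG and 4881 TPM in the α-KG control, and at 4465 TPM with 2-HG and 3630 TPM in the 2-HG control. It was more abundant than each gene of the complex, and its highest and lowest values were those of the controls. Khdc1c was at 85.2 TPM with α-KG and 80.5 TPM in the α-KG control, and at 72.1 TPM with 2-HG and 54.5 TPM in the 2-HG control. Khdc1a was at 44.5 TPM with α-KG and 20.9 TPM in the α-KG control, past the 2-fold rule at 1.06, and at 25.4 TPM with 2-HG and 22.2 TPM in the 2-HG control. It was the 1 call among the 3 family members tested with α-KG, beside 4.21% of all genes higher and 3.1% lower. There were 0 calls with 2-HG, beside 2.36% higher and 5.65% lower, and 0 between the controls, beside 5.99% and 2.87%. The medians of the 3 were 0.08, 0.30 and -0.43, in that order. Khdc1b was under 5 TPM in each library, between 2.69 and 4.41 TPM. The Khdc1 genes resemble each other, so their single values are uncertain.

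Among 8 further oocyte NLRP genes, Nlrp4c was the only one at 5 TPM or more in any library. It was at 32.6 TPM with α-KG and 25.4 TPM in the α-KG control, and at 25.3 TPM with 2-HG and 26.4 TPM in the 2-HG control. Nlrp4c was thus above the 3 NLRP genes of the complex, and above Tle6, in every library, and it was past the rule in none of the comparisons, at 0.34, -0.06 and 0.05. The other 7 were at 1.58 TPM or less in all 4 libraries, among them Nlrp9b, Nlrp14 and Nlrp4a. Nlrp14, a gene that mouse embryos also need from the mother, had its highest value with 2-HG, at 1.58 TPM, and was listed at 0 in the 2-HG control. Of the other PADI genes, Padi1, Padi2, Padi3 and Padi4 were at 0.52 TPM or less in each library. Of the TLE genes, which encode corepressors related to TLE6, Tle4 was at 12.8 TPM with α-KG and 41.3 TPM in the α-KG control, past the rule at -1.62, and at 32.8 TPM with 2-HG and 34.0 TPM in the 2-HG control. Tle1 went the other way with α-KG, at 9.62 TPM, against 3.07 TPM in the α-KG control, past the rule at 1.38. It was at 3.60 TPM with 2-HG and 4.16 TPM in the 2-HG control. Tle1 reached the 5 TPM minimum only through its α-KG value, so its call and its part in the median rest on that library. Tle3 was between 4.03 and 4.76 TPM, and Aes between 1.92 and 4.27 TPM. Over the PADI and TLE list, 2 genes were tested with α-KG, with a median of -0.12, and 1 each with 2-HG and between the controls, at -0.05 and -0.27. The calls with α-KG were 1 on each side, beside 4.21% of all genes tested on the higher side and 3.1% on the lower.

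Markers of the oocyte itself were mostly near 0 in the same libraries. Of 32 oocyte genes, 2 were at 5 TPM or more with α-KG and 1 in the α-KG control, and 2 with 2-HG and 2 in the 2-HG control. Listed at 0 were 16 of them with α-KG and 19 in the α-KG control, and 9 with 2-HG and 15 in the 2-HG control. Zp1, Zp2 and Zp3, which encode the egg coat, were at 1.07 TPM or less in each library, and H1foo, the oocyte linker histone gene, was at 0.24 TPM or less. The growth factor gene Gdf9 was at 1.34 TPM with α-KG and listed at 0 in the α-KG control, and at 4.75 TPM with 2-HG and 1.29 TPM in the 2-HG control. Figla was at 2.65 TPM with α-KG and 0.67 TPM in the α-KG control, and at 1.88 TPM with 2-HG and 2.00 TPM in the 2-HG control. Most of the oocyte sum came from Gtsf1, a piRNA pathway gene, at 24.0 TPM with α-KG and 16.0 TPM in the α-KG control, and at 52.2 TPM with 2-HG and 37.8 TPM in the 2-HG control. The 2-HG library had the highest value of Gtsf1 and the α-KG control the lowest. Tcl1, an AKT coactivator gene, was at 6.65 TPM with α-KG and 4.11 TPM in the α-KG control, and at 8.39 TPM with 2-HG and 11.1 TPM in the 2-HG control. Both were past the rule between the controls, at 1.19 for Gtsf1 and 1.25 for Tcl1, and in neither treated comparison. They were the only 2 oocyte genes tested between the controls, where 5.99% of all genes tested were past the rule on that side. Tcl1 was under the 5 TPM minimum in the α-KG control, so there and with α-KG it was tested only through the other library. The median of both was 0.57 with α-KG, 0.04 with 2-HG and 1.22 between the controls.

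**Figure D3:**
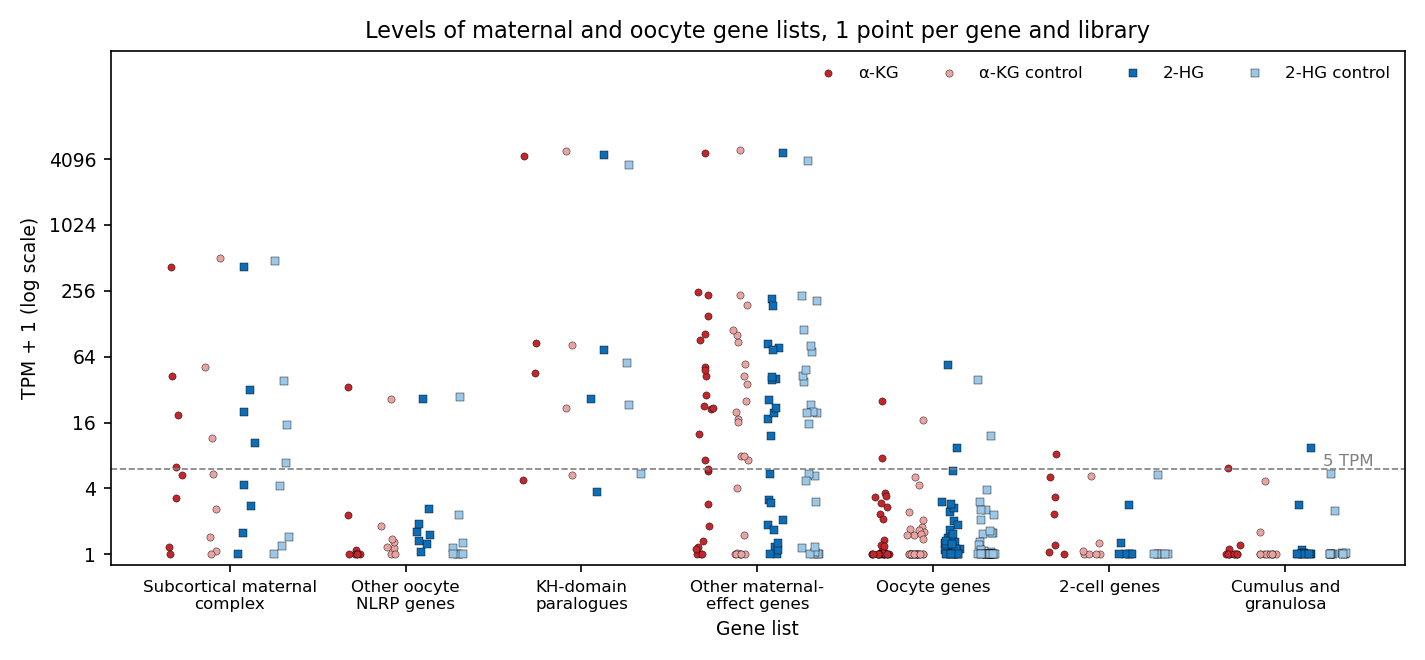
TPM + 1 on a log scale for the genes of 7 lists, with 1 point per gene and library and a dashed line at 5 TPM. Khdc3 tops the subcortical maternal complex list at 422 TPM or more, while 23 to 27 of the 32 oocyte genes lie under 1 TPM in each library.

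Other genes with a maternal effect also ranged from abundant to near 0. Dppa3, which protects DNA methylation in the zygote, was at 4637 TPM with α-KG and 4973 TPM in the α-KG control, and at 4613 TPM with 2-HG and 3935 TPM in the 2-HG control. As for Dppa5a, the highest and the lowest of these were the values of the controls. Cdh1, which encodes E-cadherin, was at 248 TPM with α-KG and 231 TPM in the α-KG control, and at 214 TPM with 2-HG and 206 TPM in the 2-HG control. Trim28, a corepressor of zinc finger proteins, was at 233 TPM with α-KG and 190 TPM in the α-KG control, and at 184 TPM with 2-HG and 227 TPM in the 2-HG control. Ezh2, the Polycomb methyltransferase gene, was at 148 TPM with α-KG and 112 TPM in the α-KG control, and at 72.4 TPM with 2-HG and 79.2 TPM in the 2-HG control. In contrast, 7 of the 25 genes, Zar1, Zar1l, Npm2, Btg4, Kpna7, Bnc1 and Sebox, were under 1 TPM in each library. Of those tested, 0 of 16 were past the rule with α-KG, 0 of 14 with 2-HG and 0 of 16 between the controls, with medians of 0.17, -0.06 and -0.17. The shares of all genes were also low, at 4.21% higher and 3.1% lower with α-KG, and 2.36% and 5.65% with 2-HG. Between the controls they were 5.99% and 2.87%.

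Across the 4 libraries, the genes whose pattern was closest to that of Khdc3 were Mafk, Elp3, Tmem147, Strap and Tprkb. The measure was the root mean square difference of centred log2(TPM + 1) values, between 0.0093 for Mafk and 0.023 for Tprkb. Elp3 was at 37.2 TPM with α-KG and 44.0 TPM in the α-KG control, and at 36.8 TPM with 2-HG and 41.8 TPM in the 2-HG control. The pattern is a common one, since 496 of 8301 protein-coding genes at a mean of 5 TPM or more lay within 0.1 of Khdc3. Ooep was at 0.19 from Khdc3, and 2578 of those genes were closer to it. No other gene of the complex above 0 TPM was closer than Ooep: Nlrp5 was at 0.30, Tle6 at 0.42, Zbed3 at 0.55, Padi6 at 0.62 and Nlrp4f at 0.94. The pseudocount of 1 flattens the pattern of genes under 1 TPM, and Nlrp2, listed at 0 in each library, was at 0.11. The place of Nlrp5 before Tle6 is thus no sign of likeness to Khdc3.

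The libraries carried the markers of blastocysts. Of 7 trophectoderm markers, 6 were at 5 TPM or more with α-KG and 7 in the α-KG control, and 6 with 2-HG and 6 in the 2-HG control. Of 5 epiblast markers it was 5 with α-KG and 4 in the α-KG control, and 3 with 2-HG and 3 in the 2-HG control. Of 4 primitive endoderm markers, Gata4 and Sox17 were at 1.67 TPM or less in each library and Gata6 was at 161 TPM or more. Pdgfra was between 4.13 and 7.84 TPM. The medians with α-KG, with 2-HG and between the controls were 0.16, -0.34 and 0.11 for trophectoderm, 0.04, -0.09 and -0.29 for epiblast, and 0.21, -0.47 and 0.31 for primitive endoderm. Those for primitive endoderm rest on the 2 genes tested, Gata6 and Pdgfra, of which Pdgfra lay near the 5 TPM minimum. Elf5 was past the rule on the lower side with α-KG, at -1.85, and between the controls, at -2.17, and Sox2 between the controls, at -1.55. Elf5 was at 1.20 TPM with α-KG and 6.90 TPM in the α-KG control, and at 0.78 TPM with 2-HG and 0.76 TPM in the 2-HG control. Both of its calls thus rest on the α-KG control. Sox2 too was tested between the controls only through the α-KG control, at 8.91 TPM, against 2.38 TPM in the 2-HG control. Of all genes tested, 3.1% were past the rule on the lower side with α-KG and 2.87% between the controls. The 12 cumulus and granulosa markers, of the cells that surround the egg, summed to 5.49 TPM with α-KG and 4.27 TPM in the α-KG control, and to 10.4 TPM with 2-HG and 5.98 TPM in the 2-HG control. Amhr2 made up most of this, and 9 of the 12 were listed at 0 with α-KG and 10 in the α-KG control, and 8 with 2-HG and 8 in the 2-HG control. The 4 oviduct markers summed to 2.04 TPM with α-KG and 3.79 TPM in the α-KG control, and to 2.24 TPM with 2-HG and 2.79 TPM in the 2-HG control. The 4 blood markers summed to 3.13 TPM or less in each library. The part of these cells in the low values of Padi6, Zbed3 and Nlrp4f was not tested.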

How the data were processed

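RNA was measured in 4 blastocyst libraries, 1 per group. The authors deposited TPM per gene, a length-scaled level, and the columns sum to between 999891 and 999935. The submitters' processing notes name HISAT2, StringTie, Trimmomatic, Picard and DESeq2, and as builds GRCm38.p6 and mm10; versions and roles are not given in the sources used here. TPM holds no read numbers, so depth is unknown and no counting interval is given. Whether reads were counted by strand is not given in the sources used here.

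With Python 3.11.15 and pandas 2.3.3, differences of log2(TPM + 1) were taken between 2 libraries for genes at 5 TPM or more in at least 1 of them, and a gene passed the 2-fold rule at an absolute difference of 1 or more. The pseudocount of 1 understates the change of low genes. No test was possible with 1 library per group. The code that makes the calls was checked on simulated TPM without noise. Positions and exons come from GENCODE M21, matched by ID. Members and the 12 wider lists were chosen with earlier results of these data known. The genes named by rule were all members, list genes past the 2-fold rule, up to 4 most abundant genes per list, overlapping genes and the 5 genes most like Khdc3. Nlrp5-ps, Tle2, the PADI genes, the egg-coat and H1foo markers and the maternal-effect genes under 1 TPM were added after their values were seen. Of 10 further NLRP entries, 8 matched. Another worksheet, with 10 columns of library values, holds 0 of the members and was not used. Alternatives changed the pseudocount, the minimum, the scaling, the fold and the control.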

Additional observations from a re-analysis of the deposited data

How the results depend on the processing

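With α-KG, 1 of the 8 genes was past the 2-fold rule, on the higher side. This count was 0 with a pseudocount of 5, where 1.65% of all genes were past the rule on that side, and 0 against the mean of both controls, where 2.32% were. It was 2 with no minimum, with a minimum of 1 TPM or with a 1.5-fold rule, and the share of all genes was then 5.17%, 8.38% and 11.0%. Against the 2-HG control it was 0 on the higher side, where 3.27% of all genes were past the rule. On the lower side it was then 1, Padi6 at -1.07, where 5.23% of all genes were. With 2-HG the count of 0 became 1 with no minimum or a minimum of 1 TPM, through Nlrp4f, where 2.99% and 5.31% of all genes were past the rule on the higher side. It was also 1 with a 1.5-fold rule, through Padi6, where 6.63% were. Between the controls it was 0 under each alternative run. With median-of-ratios scaling the sum of the 8 genes was 483 with α-KG and 580 in the α-KG control, and 505 with 2-HG and 507 in the 2-HG control. Without Khdc3 it was 71.7 TPM with α-KG, against 67.3 TPM in the α-KG control, while it was 64.6 TPM with 2-HG and 60.8 TPM in the 2-HG control. Apart from Nlrp2, 91 single-gene differences were taken again with another pseudocount, scaling or control. Of these, 3 lost the call, 1 gained it and 3 uncalled ones changed sign. No paired analysis was possible because each group has 1 library, and for the same reason no replicate could be left out.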

Other observations

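Of 7 genes that mark the 2-cell stage, when the mouse genome is first broadly transcribed, Zfp352 was the only one at 5 TPM or more in any library. It was at 7.28 TPM with α-KG and listed at 0 in the α-KG control, and at 0.27 TPM with 2-HG and listed at 0 in the 2-HG control. Its α-KG difference was 3.05, past the 2-fold rule, as were 4.21% of all genes tested on that side. Zfp352 reached the 5 TPM minimum only through its α-KG value, and none of the others was tested. Zscan4d was at 2.37 TPM with α-KG and listed at 0 in the other 3 libraries. Tcstv1 was at 4.05 TPM with α-KG and 4.24 TPM in the α-KG control, and was listed at 0 with 2-HG and at 4.27 TPM in the 2-HG control. Tcstv3 was listed at 0 with α-KG, against 0.07 TPM in the α-KG control, and was at 1.85 TPM with 2-HG and listed at 0 in the 2-HG control. The 7 genes summed to 15.3 TPM with α-KG and 4.58 TPM in the α-KG control, and to 2.12 TPM with 2-HG and 4.27 TPM in the 2-HG control.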
